A study of Mus musculus with 6 samples.

Results

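The 8 genes encoding the classical auxiliary subunits of voltage-gated calcium channels were examined in developing mouse retinal ganglion cells (RGCs), the neurons whose axons form the optic nerve. These are the 4 alpha2delta genes (Cacna2d1 to Cacna2d4) and the 4 beta genes (Cacnb1 to Cacnb4), chosen by gene symbol from a table of 24060 genes. All 8 were in the table and all 8 passed the expression filter of the test. RGCs of the C57BL/6 strain were purified by immunopanning, in which papain-dissociated retinas were first cleared of macrophages and RGCs were then captured with antibodies against CD90, the product of Thy1. RNA was sequenced in 3 samples from embryonic day 18 (E18, replicates 1, 3 and 4) and 3 samples from postnatal day 5 (P5, replicates 6, 8 and 9). The study's methods describe its C57BL/6 mice as wild type and of both sexes, no treatment was given for either age, and it was not stated whether samples came from separate or pooled animals, so p-values measure only the spread between these samples, which may be technical. The study compared the ages to contrast embryonic with postnatal RGC transcriptomes.

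A calcium channel is built around a pore-forming alpha1 subunit. High-voltage-activated pores, which drive transmitter release and dendritic calcium entry, carry a cytoplasmic beta subunit and an extracellular alpha2delta subunit, whereas low-voltage-activated T-type pores do not need them. The beta subunit grips a short helix in the first intracellular loop of the pore, shields the channel from degradation and sets its gating. The alpha2delta subunit is a membrane-anchored glycoprotein that raises the number of channels at the surface and at release sites, and it is the target of the drugs gabapentin and pregabalin. Members of both families have also been tied to synapse formation and axon growth.

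The alpha2delta proteins fall into 2 closely related pairs. Over the translated GENCODE transcripts, Cacna2d1 and Cacna2d2 shared 56.1% of aligned residues and Cacna2d3 and Cacna2d4 shared 59.0%, whereas identity between the pairs was 30.4% to 33.6%. Each protein carries a metal ion-dependent adhesion site in its von Willebrand factor A domain, which is needed for its effect on channel trafficking. The coding bases of that site are shown for all 4 genes because they mark what the family shares. Capitals mark the codons of the metal-binding motif, and sequences run 5′ to 3′ on the coding strand.
Cacna2d1: ctggtgGACGTGAGTGGAAGTgtgagc
Cacna2d2: attgtgGATGTGAGTGGCAGCgtgagc
Cacna2d3: ttggtgGACGTCAGTGGGAGCatgaaa
Cacna2d4: ctggtgGACATTAGCGGCAGCatgaag
In GRCm38 these coding exon bases lie at chr5:16266727-16266737 and chr5:16267376-16267391 on the plus strand for Cacna2d1, at chr9:107513094-107513104 and chr9:107513233-107513248 on the plus strand for Cacna2d2, at chr14:29346965-29346991 on the minus strand for Cacna2d3, and at chr6:119268236-119268262 on the plus strand for Cacna2d4. The motif starts at residue 259, 300, 262 and 304 of the respective translations, and in Cacna2d3 the same search pattern also matched at residue 993, outside this domain.

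Cacna2d1 and Cacna2d2 encode the gabapentin-binding alpha2delta proteins, and binding depends on a run of 3 arginines upstream of the adhesion site. A search of the 60 residues before the site found this run in both genes, 20 residues before it, and in neither Cacna2d3 nor Cacna2d4. The arginine codons are in capitals.
Cacna2d1: tatgatgtaCGCAGAAGAccatggtac
Cacna2d2: tacgatgtcAGAAGACGAccctggtat
These bases lie at chr5:16264305-16264327 and chr5:16266687-16266690 for Cacna2d1, and at chr9:107512338-107512360 and chr9:107513054-107513057 for Cacna2d2 (GRCm38, plus strand). Elsewhere in the protein, Cacna2d3 and Cacna2d4 each held 1 run of 3 arginines.

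Of the 8 auxiliary subunit genes, 5 differed between the ages, with 4 higher at P5 (Cacnb2, Cacna2d1, Cacna2d2 and Cacnb4) and 1 higher at E18 (Cacnb3). The test was the quasi-likelihood test of edgeR with Benjamini-Hochberg adjustment over 16449 genes, called at an adjusted p under 0.05. The same rule called 43.4% of all tested genes, 20.8% as higher and 22.5% as lower at E18, so a call by itself was common in this comparison. The median log2 fold change of E18 over P5 was -0.59 over the 8 genes and 0.00 over all tested genes. The 5 called genes were also those in which the 3 E18 values and the 3 P5 values did not overlap, a separation found in 56.1% of tested genes. In bulk RNA, fewer cells expressing a gene and less RNA per cell cannot be told apart.

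**Figure D1:**
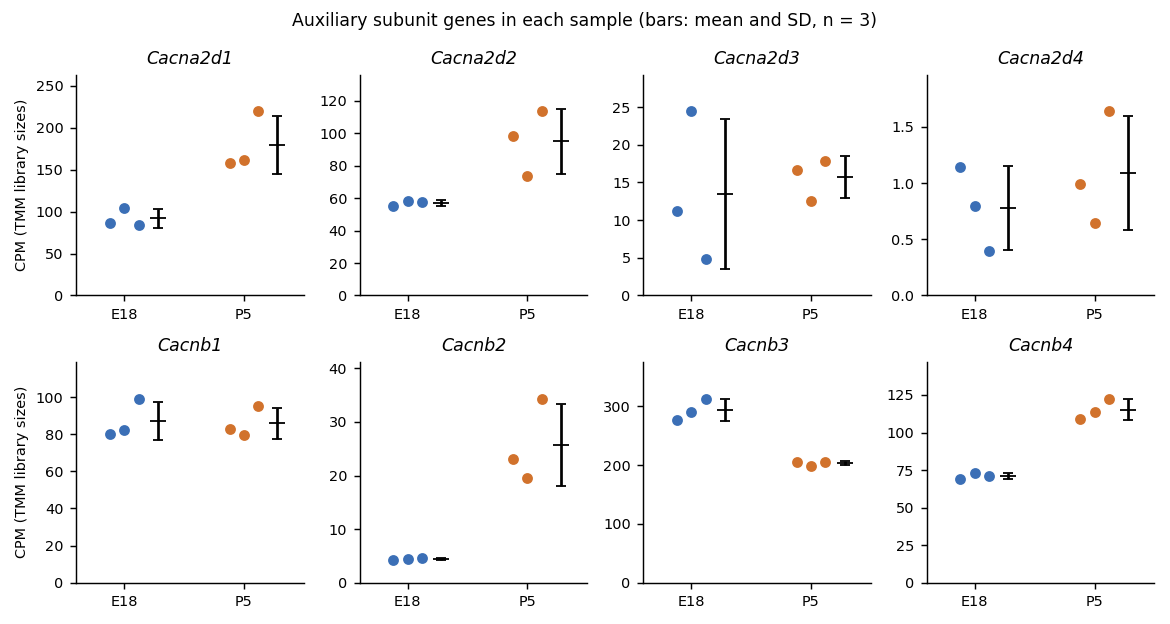
CPM (linear axes from 0, one panel per gene) of the 8 auxiliary subunit genes in each of the 3 E18 and 3 P5 samples, where points are samples and bars give the mean and SD. Cacna2d1, Cacna2d2, Cacnb2 and Cacnb4 sat higher in all P5 samples, Cacnb3 sat higher in all E18 samples, and the ages overlapped for Cacna2d3, Cacna2d4 and Cacnb1.

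Cacna2d1 (ENSMUSG00000040118.15, chr5:15934691-16374511, plus strand) encodes the widely expressed alpha2delta-1, which also acts as a receptor for thrombospondins in synapse formation. Levels are given in CPM, the reads of a gene scaled to a fixed library size after normalization. Cacna2d1 was at 86.7, 104 and 84.2 CPM in E18 replicates 1, 3 and 4, and at 158, 161 and 220 CPM in P5 replicates 6, 8 and 9. All P5 samples lay above all E18 samples, and P5 replicate 9 stood highest. The means were 91.8 ± 11.01 CPM at E18 and 179.8 ± 34.5 CPM at P5 (SD, n = 3 each), a 1.96-fold higher level at P5. The log2 fold change of E18 over P5 was -0.97 (SE 0.147, 95% interval -1.30 to -0.64), with an adjusted p of 0.00146 in edgeR.

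Cacna2d2 (ENSMUSG00000010066.15, chr9:107399612-107529343, plus strand) encodes alpha2delta-2, whose loss causes ataxia and seizures in the ducky mouse. It measured 55.2, 58.3 and 57.8 CPM in the E18 samples and 98.4, 73.9 and 114 CPM in P5 replicates 6, 8 and 9. The E18 samples were nearly alike, whereas the P5 samples were spread out and all higher. The mean was 57.1 ± 1.67 CPM at E18 and 95.3 ± 20.0 CPM at P5, 1.67-fold higher at P5. Its log2 fold change was -0.74 (SE 0.146, 95% interval -1.07 to -0.41, edgeR adjusted p = 0.00467).

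The other alpha2delta pair did not pass the test. Cacna2d3 (ENSMUSG00000021991.9, chr14:28904943-29721864, minus strand), linked to auditory processing and pain, was at 11.2, 24.4 and 4.87 CPM at E18 and at 16.7, 12.6 and 17.9 CPM at P5. Its E18 samples spanned a 5.02-fold range that enclosed all P5 values. The log2 fold change was -0.22 with an SE of 0.463 and a 95% interval of -1.27 to 0.83 (edgeR adjusted p = 0.732), so a difference of either sign remained within its error. Cacna2d4 (ENSMUSG00000041460.14, chr6:119236526-119352407, plus strand) encodes the alpha2delta of photoreceptor ribbon synapses. It was the lowest of the 8, with 1.145, 0.794 and 0.398 CPM at E18 and 0.993, 0.640 and 1.64 CPM at P5, from 36 to 154 reads per sample. Its ages overlapped, and the log2 fold change was -0.49 (SE 0.449, 95% interval -1.51 to 0.53, edgeR adjusted p = 0.408).

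Among the beta genes, Cacnb2 (ENSMUSG00000057914.15, chr2:14603088-14987908, plus strand) differed most. It encodes the principal beta subunit of cardiac L-type channels and of photoreceptor synapses, and some of its variants slow channel inactivation. The E18 samples gave 4.24, 4.50 and 4.67 CPM, and P5 replicates 6, 8 and 9 gave 23.1, 19.6 and 34.3 CPM. The lowest P5 value was thus far above the highest E18 value. Means were 4.47 ± 0.215 CPM and 25.7 ± 7.68 CPM, 5.75-fold higher at P5, with a log2 fold change of -2.52 (SE 0.208, 95% interval -2.99 to -2.05, edgeR adjusted p = 0.000157). A larger absolute log2 fold change was found in 2.52% of tested genes. The summed level of 11 photoreceptor markers was 4.57 to 13.2 CPM at E18 and 4.78 to 5.51 CPM at P5, with Rcvrn, Sag and 5 others under 1 CPM in every sample. Nrl (0.508 to 1.16 CPM at E18, 1.21 to 1.92 CPM at P5) and Gnat1 (0.387 to 0.410 and 0.425 to 0.995 CPM) were higher in all P5 samples, although neither passed the test. Of the 11 markers, 3 were called higher and 0 lower at E18. These were Crx (3.23 CPM on average at E18 and 0.286 at P5, edgeR adjusted p = 0.00496), Opn1sw (1.30 and 0.286, 0.00741) and Pde6b (0.730 and 0.362, 0.0290). The part of photoreceptors in the Cacnb2 result was not tested.

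Cacnb4 (ENSMUSG00000017412.15, chr2:52428320-52676831, minus strand) encodes a neuronal beta subunit found with P/Q-type channels, and its loss causes the epileptic lethargic phenotype in mice. Its samples were tight at both ages, with 68.9, 73.2 and 71.1 CPM at E18 and 109, 114 and 123 CPM at P5. The mean was 71.1 ± 2.14 CPM at E18 and 115 ± 6.89 CPM at P5, 1.62-fold higher at P5. Its log2 fold change was -0.70 (SE 0.0863, 95% interval -0.89 to -0.50, edgeR adjusted p = 0.000681).

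Cacnb3 (ENSMUSG00000003352.14, chr15:98630840-98644529, plus strand), a neuronal beta subunit that pairs with N-type channels, went the other way. It was at 277, 291 and 313 CPM at E18 and at 205, 199 and 205 CPM at P5. Every E18 sample lay above every P5 sample, and the P5 samples differed little among themselves. The mean was 294 ± 18.32 CPM at E18 and 203 ± 3.37 CPM at P5, 1.45-fold higher at E18, with a log2 fold change of 0.53 (SE 0.0833, 95% interval 0.34 to 0.72, edgeR adjusted p = 0.00168).

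Cacnb1 (ENSMUSG00000020882.17, chr11:98001508-98023034, minus strand), the beta subunit of the skeletal muscle channel that is also made in brain, was at 80.3, 82.1 and 99.1 CPM at E18 and at 82.6, 79.5 and 95.2 CPM at P5. Values at both ages were interleaved. The log2 fold change was 0.02 (SE 0.115, edgeR adjusted p = 0.884), and its 95% interval of -0.24 to 0.28 bounded the difference on both sides.

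**Figure D2:**
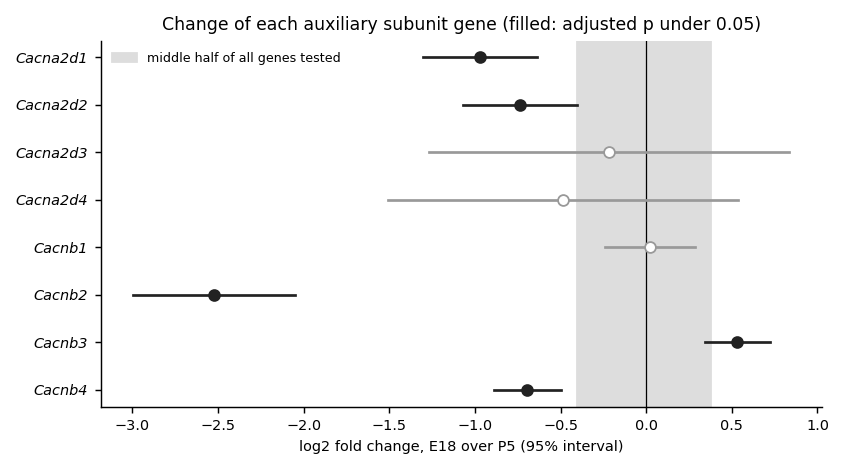
Log2 fold change of E18 over P5 for the 8 auxiliary subunit genes with 95% intervals from edgeR, against the range between the quartiles of all tested genes (-0.40 to 0.38). The intervals of Cacnb2, Cacna2d1, Cacna2d2 and Cacnb4 lay below 0, that of Cacnb3 lay above 0, and those of Cacna2d3, Cacna2d4 and Cacnb1 included 0.

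The calls of the 5 genes were kept, with the same direction, in each of 13 alternative fits, including those without 1 sample. Among the P5 samples, replicate 9 held the highest value of all 8 genes, against 33.2% of tested genes, and replicate 8 held the lowest value of 6, against 39.2%. P5 replicate 9 was also highest for Thy1, the antigen used for capture (500, 469 and 690 CPM in replicates 6, 8 and 9), and for Slc17a6, the vesicular glutamate transporter of RGCs (762, 531 and 939 CPM). At E18 Thy1 was at 212, 217 and 312 CPM (2.24-fold higher at P5, edgeR adjusted p = 0.00197) and Slc17a6 was at 256, 275 and 316 CPM (2.63-fold higher at P5, edgeR adjusted p = 0.000931), so both moved with the 4 subunit genes that were higher at P5. Among the 15 RGC markers, 4 were called higher and 5 lower at E18. Nefl, Nefm and Nefh were also highest in P5 replicate 9. Rbpms (329, 326 and 291 CPM in replicates 6, 8 and 9), Pou4f1 (536, 712 and 483) and Isl1 (262, 309 and 207) were lowest there. So were Pou4f2, Gap43, Tubb3, Stmn2, Ebf3 and, by a narrow margin, Pou4f3, whereas Sncg was neither highest nor lowest. More of the 15 markers were thus lowest than highest in replicate 9. The part of these markers and of replicate 9 in the results was not tested. Without replicate 9 the calls and directions of the 5 subunit genes held.

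Annotated genes on the opposite strand overlap exons of Cacna2d2, Cacnb1, Cacnb2 and Cacnb4 (Gm17141, Gm11629, Gm10848, Gm10849, Gm13269 and A430018G15Rik). None of them was counted in the table. The strand setting of the counting was not given in the sources used here, so reads from these partners cannot be told apart from those of the subunit genes.

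Levels of different genes were compared per kilobase of exon (CPM per kb). At E18 the order was Cacnb3 (73.2 ± 4.57 CPM per kb), Cacnb1 (19.25 ± 2.29), Cacnb4 (7.93 ± 0.239), Cacna2d1 (7.39 ± 0.886), Cacna2d2 (7.19 ± 0.210), Cacna2d3 (1.55 ± 1.146), Cacnb2 (0.338 ± 0.0163) and Cacna2d4 (0.0822 ± 0.0395; SD, n = 3). The values of Cacna2d1 overlapped with those of Cacnb4 and of Cacna2d2, whereas every Cacnb4 value lay above every Cacna2d2 value. At P5, Cacnb3 (50.6 ± 0.840 CPM per kb) and Cacnb1 (18.9 ± 1.84) again led by mean. They were followed by Cacna2d1 (14.5 ± 2.78), Cacnb4 (12.8 ± 0.769) and Cacna2d2 (11.99 ± 2.52), whose values overlapped. The highest Cacna2d1 value (17.68) was also above the lowest Cacnb1 value (17.55). Cacnb2 (1.94 ± 0.581 CPM per kb) and Cacna2d3 (1.80 ± 0.320) also overlapped at P5, and Cacna2d4 was last at 0.115 ± 0.0534. This order depended on the length used. Per kb of coding length at E18, Cacna2d1 (25.4 to 31.5 CPM per kb) lay above Cacna2d2 (15.9 to 16.8) and below Cacnb4 (44.2 to 46.9) without overlap. Per kb of coding length at P5, Cacnb4 (73.8 CPM per kb) and Cacna2d1 (54.3) stood above Cacnb1 (42.2), and Cacnb2 (9.97 to 17.45) lay above Cacna2d3 (3.84 to 5.46) without overlap.

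The makeup of the beta family was less dominated by Cacnb3 at P5. Cacnb3 held 72.85%, 73.1% and 72.1% of the summed beta CPM per kb in the E18 samples and 61.4%, 61.0% and 57.8% in P5 replicates 6, 8 and 9, a mean of 72.7% ± 0.513 against 60.07% ± 1.96. Cacnb4 held 7.89% ± 0.491 at E18 and 15.2% ± 0.540 at P5, Cacnb2 held 0.336% ± 0.00866 and 2.29% ± 0.579, and Cacnb1 held 19.07% ± 1.01 and 22.4% ± 1.19. For each of the 4 shares per kb of exon the ages did not overlap, and the two-sided exact permutation test gave p = 0.1, the smallest that 3 against 3 samples allow, so none could reach 0.05. The level of Cacnb1 itself did not pass the test between the ages. The place of Cacnb1 against Cacnb4 depended on the length used. Per coding length, Cacnb4 held 15.6% at E18 and 27.5% at P5, and Cacnb1 held 14.6% and 15.7% with overlapping ages. The share of Cacnb2 per coding length was 0.777% at E18 and 4.82% at P5.

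The alpha2delta family was led by Cacna2d1 and Cacna2d2 at both ages. Cacna2d1 held 45.65% ± 0.581 of the summed CPM per kb at E18 and 51.1% ± 3.84 at P5 (exact permutation p = 0.1, n = 3), and Cacna2d2 held 44.8% ± 5.14 and 42.1% ± 3.27 (exact permutation p = 0.5, n = 3). The Cacna2d1 share did not overlap between the ages (45.1% to 46.3% at E18 and 47.0% to 54.6% at P5), nor did it per coding length. The shares of Cacna2d3 (9.07% ± 5.65 and 6.37% ± 0.591) and Cacna2d4 (0.508% ± 0.256 and 0.391% ± 0.111) overlapped between the ages, with exact permutation p = 0.6 for each (n = 3). The place of Cacna2d1 against Cacna2d2 depended on the length used. Per coding length, Cacna2d1 held 57.2% at E18 and 62.6% at P5, and Cacna2d2 held 34.25% and 31.5%.

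**Figure D3:**
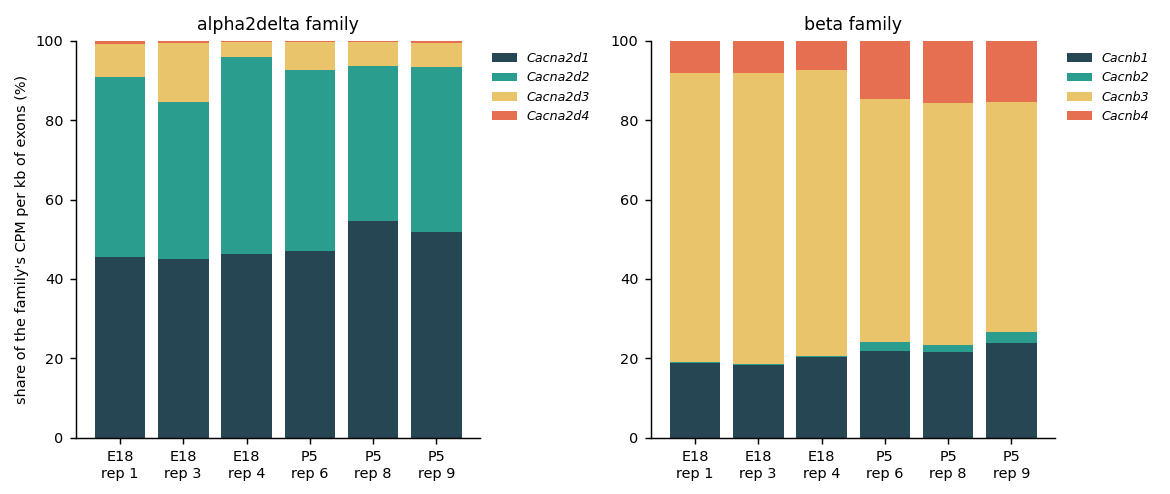
Share of each gene in the summed CPM per kb of exon of its own family, as a percentage, for the alpha2delta and beta genes in the 3 E18 and 3 P5 samples. Cacnb3 made up a mean of 72.7% of the beta family at E18 and 60.07% at P5, and Cacna2d1 and Cacna2d2 made up most of the alpha2delta family in all 6 samples.

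The summed alpha2delta level was 15.3, 18.6 and 14.7 CPM per kb at E18 and 27.2, 23.8 and 34.2 CPM per kb at P5, 1.75-fold higher at P5 (exact permutation p = 0.1, n = 3). The summed beta level was 94.8, 99.1 and 108.3 CPM per kb at E18 and 83.2, 81.4 and 88.4 CPM per kb at P5, a ratio of 0.837 (exact permutation p = 0.1, n = 3). Per coding length the ratio was 0.918 and the ages overlapped (exact permutation p = 0.2, n = 3). The 7 high-voltage-activated pore genes, which these subunits join, summed to 46.65 ± 2.18 CPM per kb at E18 and 43.5 ± 1.61 at P5, with overlapping values (ratio 0.932, exact permutation p = 0.2, n = 3). The log2 ratio of alpha2delta to pore RNA did not overlap between the ages, at -1.53 ± 0.174 at E18 and -0.63 ± 0.247 at P5, a difference of -0.90 (exact permutation p = 0.1, n = 3). For beta to pore RNA the log2 ratio was 1.11 ± 0.0637 at E18 and 0.955 ± 0.0580 at P5, a difference of 0.15 (exact permutation p = 0.1, n = 3). Per coding length this difference was 0.044 and the ages overlapped. These are ratios of RNA and say nothing of assembled protein.

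Among the pore genes, 3 of 7 in the high-voltage-activated class and all 3 in the T-type class passed the test, against 43.4% of all tested genes. The pattern of the beta-binding helix (the alpha interaction domain) was found once in each of the 7 high-voltage-activated pore proteins and in 0 of the 3 T-type proteins. Of the 7 high-voltage-activated genes, 1 was called higher and 2 lower at E18, with a median log2 fold change of -0.01. Cacna1a, the P/Q-type pore, was at 126 ± 8.74 CPM at E18 and 103 ± 8.10 CPM at P5 (log2 fold change 0.30, edgeR adjusted p = 0.0360). Cacna1c, an L-type pore, was at 41.3 ± 1.24 and 49.8 ± 3.29 CPM (-0.27, edgeR adjusted p = 0.0399). The third call was Cacna1s, the skeletal muscle pore, at 0.0686 and 0.393 CPM, which is named here after its values were seen. Without E18 replicate 3 or E18 replicate 4 the list held 1 call in place of 3. Cacna1a lost its call without E18 replicate 3 (edgeR adjusted p = 0.140), E18 replicate 4 (0.0945), P5 replicate 6 (0.117) or P5 replicate 8 (0.0514), and Cacna1c without E18 replicate 1 (0.136), E18 replicate 3 (0.160), E18 replicate 4 (0.0892) or P5 replicate 9 (0.0551). Cacna1c also lost its call with no filter on low counts (0.0648).

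All 3 T-type genes, whose channels open near rest and support burst firing, differed between the ages (median log2 fold change -0.92). Cacna1g was at 22.7 ± 3.08 CPM at E18 and 77.7 ± 20.0 CPM at P5 (log2 fold change -1.77, edgeR adjusted p = 0.000355). Cacna1i was at 12.8 ± 1.54 and 24.3 ± 3.90 CPM (-0.92, edgeR adjusted p = 0.00203). Cacna1h moved the opposite way, at 121 ± 4.95 CPM at E18 and 64.3 ± 11.2 CPM at P5 (0.91, edgeR adjusted p = 0.00100).

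Among 8 genes of the gamma family, which includes the skeletal muscle gamma subunit and the AMPA receptor-binding TARPs, 7 were tested, with 1 called higher and 1 lower at E18 (median 0.12). Over all tested genes, 20.8% were called higher and 22.5% lower. Cacng4 was higher at E18 (log2 fold change 0.60, edgeR adjusted p = 0.0267) and Cacng5 was higher at P5 (-0.54, edgeR adjusted p = 0.0127). The call of Cacng4 was lost without E18 replicate 1 (edgeR adjusted p = 0.0694), E18 replicate 3 (0.0607), E18 replicate 4 (0.0585), P5 replicate 6 (0.0971) or P5 replicate 9 (0.0873).

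The RGK GTPases bind beta subunits and block high-voltage-activated channels. Of 4 genes, 3 were tested and 1 was called, against 43.4% of all tested genes. Rem2 was at 55.6, 58.4 and 59.1 CPM at E18 and at 34.7, 25.3 and 24.5 CPM at P5, with no overlap (log2 fold change 1.03, edgeR adjusted p = 0.000916). Gem (0.99, edgeR adjusted p = 0.110) and Rrad (0.35, edgeR adjusted p = 0.424) did not pass the test, and Rem1 was too low to test.

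Proteins that bind alpha2delta subunits, or resemble them, gave 4 calls among 7 tested of 9 genes, 2 in each direction (median -0.17). Over all tested genes, 43.4% were called. Thbs2, a secreted thrombospondin, was at 0.518, 0.598 and 0.939 CPM at E18 and at 5.44, 3.18 and 9.14 CPM at P5 (log2 fold change -3.11, edgeR adjusted p = 0.000885). Cachd1, an alpha2delta-like membrane protein, was also higher at P5 (-0.53, edgeR adjusted p = 0.00253). Lrp1, an endocytic receptor that aids alpha2delta trafficking, was higher at E18 (0.52, edgeR adjusted p = 0.00412), as was Thbs3 (0.45, edgeR adjusted p = 0.0357). Thbs3 lost its call without E18 replicate 1 (edgeR adjusted p = 0.0718), E18 replicate 4 (0.134), P5 replicate 6 (0.0785) or P5 replicate 9 (0.107).

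Of 12 partners of the beta subunit and of the channel at the active zone, 5 were lower and 0 higher at E18 by edgeR's quasi-likelihood test (median -0.07). Over all tested genes, 22.5% were called lower and 20.8% higher. In the list, that test had 2 higher at an unadjusted p under 0.05, and DESeq2 called 1 higher. Rims4, a short RIM protein, had the largest change of the 5 lower genes (log2 fold change -1.45, edgeR adjusted p = 0.000481). Stac (-1.02, edgeR adjusted p = 0.00203) and Stac2 (-0.88, edgeR adjusted p = 0.0132) encode adaptors that slow L-type channel inactivation, and Tspoap1, listed as Bzrap1, encodes a RIM-binding protein (-0.45, edgeR adjusted p = 0.0145). The remaining call was Ppp2r5d, a phosphatase subunit (-0.38, edgeR adjusted p = 0.0191), named here after its values were seen. Without E18 replicate 1 the list held 3 calls and without E18 replicate 3 it held 2. Tspoap1 (edgeR adjusted p = 0.0569) and Ppp2r5d (0.0818) were lost without E18 replicate 1, and Tspoap1 (0.0684), Ppp2r5d (0.0664) and Stac2 (0.0549) without E18 replicate 3. Ppp2r5d was also lost without P5 replicate 9 (0.0502).

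The calcium sensors that regulate the pore gave 3 lower and 0 higher calls at E18 by edgeR's quasi-likelihood test among 7 tested of 8 genes (median -0.52). Over all tested genes, 22.5% were called lower and 20.8% higher. In the list, that test had 2 higher at an unadjusted p under 0.05. DESeq2 called 0 higher, and the exact and likelihood ratio tests of edgeR called 1 each. Without P5 replicate 8 the list held 5 calls in place of 3. The calmodulin genes Calm2 (log2 fold change -0.56, edgeR adjusted p = 0.00168) and Calm3 (-0.52, edgeR adjusted p = 0.00514) were higher at P5. The calneuron gene Caln1 was also higher at P5 (-0.52, edgeR adjusted p = 0.00610).

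**Figure D4:**
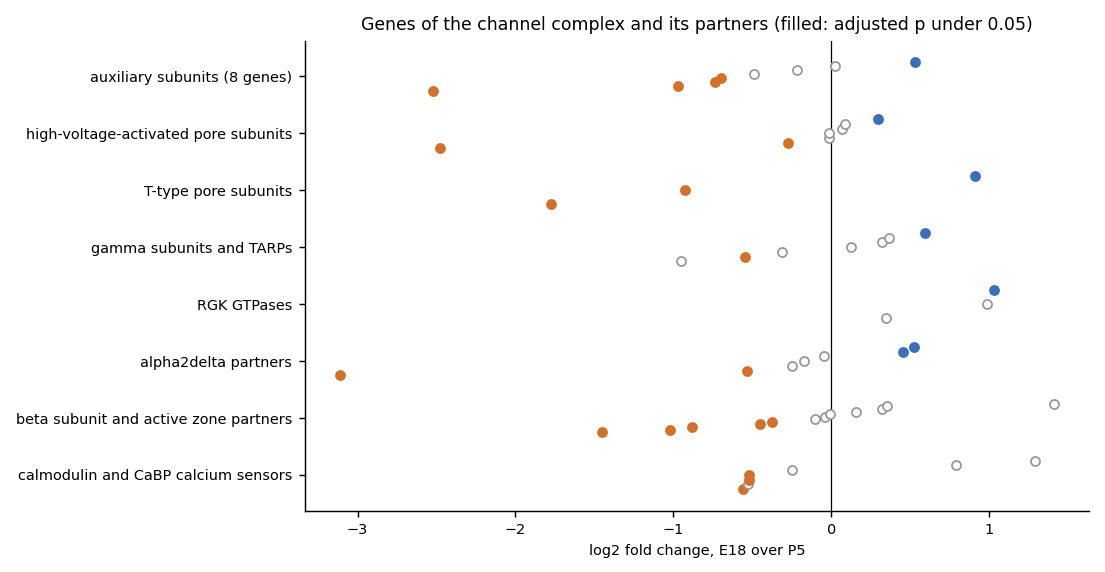
Log2 fold change of E18 over P5 for the 8 auxiliary subunit genes and the tested genes of the 7 lists around the channel complex, by list. Filled points passed an edgeR adjusted p of 0.05, blue when higher and orange when lower at E18, and open points did not. All 3 T-type genes passed, in both directions, whereas the high-voltage-activated pore genes centred near 0 (median -0.01).

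Cacna2d3 had the widest relative spread of the 8 subunit genes at E18, with a coefficient of variation of 74% against 17.8% at P5. The E18 samples were ordered replicate 3, then 1, then 4. Of 11 amacrine markers, 9 had the same order at E18, as did 5 of 5 horizontal cell markers, 0 of 15 RGC markers, 0 of 9 bipolar markers and 3 of 12 progenitor markers. It was also seen in 2 of 11 photoreceptor, 2 of 9 oligodendrocyte, 1 of 12 Müller glia and astrocyte, 1 of 11 microglial and 1 of 8 red blood cell markers. Endothelial and pericyte (0 of 9) and dividing cell (0 of 14) markers did not have it. The share of all tested genes with this order was not counted. Tfap2b, an amacrine transcription factor, was at 47.5, 119 and 1.62 CPM in E18 replicates 1, 3 and 4 and at 1.02, 1.55 and 1.44 CPM in the P5 samples. Gad1, the GABA-synthesizing enzyme, was at 19.2, 35.1 and 0.486 CPM at E18 and at 1.86, 3.91 and 3.47 CPM at P5. At P5 both genes were low in all samples, whereas Cacna2d3 stayed between 12.6 and 17.9 CPM. Gad2, an amacrine marker with the same order at E18 (9.48, 11.05 and 4.13 CPM), was not lower at P5 (8.01, 8.81 and 13.2 CPM). The other amacrine markers with that order (Tfap2a, Chat, Slc18a3, Slc32a1, Th and Ptf1a) had lower means at P5. The exceptions to the order were Slc6a9 and Calb2, and the summed amacrine list, in which Calb2 was abundant, was 871 to 959 CPM at E18 and 1162 to 1508 CPM at P5. Whether other cells account for part of the Cacna2d3 signal was not tested. Without E18 replicate 3 its log2 fold change was -0.96 (edgeR adjusted p = 0.0642), and without E18 replicate 4 it was 0.18.

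**Figure D5:**
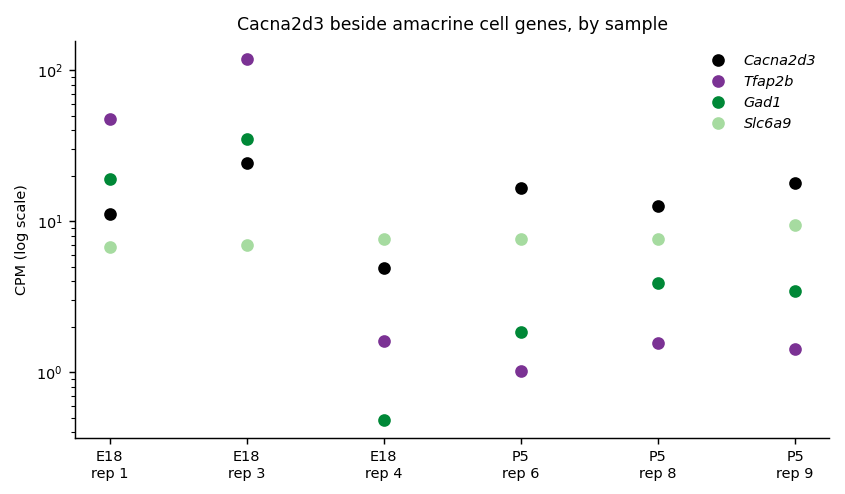
CPM (log axis) of Cacna2d3 and of the amacrine markers Tfap2b, Gad1 and Slc6a9 in each of the 6 samples. Among the E18 samples Cacna2d3, Tfap2b and Gad1 were highest in replicate 3 and lowest in replicate 4 and Slc6a9 did not follow that order, and at P5 Cacna2d3 stayed at 12.6 to 17.9 CPM while Tfap2b and Gad1 were under 4 CPM. Gad2, which shared the order at E18 and was not lower at P5, is not shown.

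The genes most like a subunit gene were named by Pearson's r of log2 CPM over the 6 samples, against 9723 genes averaging 10 CPM or more. For Cacnb2 they were Rhof (r = 0.9991), Cdc42bpa (0.9988) and Coq5 (0.9987). For Cacnb3 they were Ngfr (r = 0.9968), Pla2g7 (0.9966) and Gsn (0.9956). These values are descriptions, since the samples fall into 2 ages, and r was over 0.95 for 1160 genes with Cacnb2 and for 338 with Cacnb3. For Cacna2d3, added after its values were seen, only Plxna4 (0.9777) and Mmp17 (0.9686) passed 0.95.

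Promoter windows from 250 bases before to 50 after the transcript start were at hand in RefSeq (GRCm38) for 7 of the 8 genes, as 12 windows, and not for Cacna2d4. The GC box GGGCGG, read on both strands, was in 8 of 12 windows and in at least 1 window of each of the 7 genes, against 35.7% of 32851 promoters. The Cacnb2 match, at chr2:14604211-14604237 with the motif in capitals, shows the reverse complement of the box in the gene that differed most.
Cacnb2: tggagccagcCCGCCCagcagtcccag
The Ets core CCGGAAG bound by Elk-1 (8.86% of promoters), the left part of the REST site CAGCACC (7.14%), the cyclic AMP response element TGACGTCA (1.79%) and the TATA box TATAAA (13.6%), each read on both strands, were in 0 of the 12 windows. A match is a run of letters and not a site shown to be bound.

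The samples held 81213639 to 114512853 counts on genes. The 15 RGC markers were all detected, with sums of 10625 to 12203 CPM at E18 and 10690 to 11701 CPM at P5. Summed markers of dividing cells were 87.9 to 368 CPM at E18, highest in replicate 1, and 68.1 to 86.1 CPM at P5. Of these 14 markers, 9 were called higher and 0 lower at E18. The largest part of the sum at P5 was Pcna (36.4 to 39.5 CPM). Mki67 was at 68.7, 16.2 and 2.84 CPM in E18 replicates 1, 3 and 4 and at 0.967 to 4.17 CPM at P5. Endothelial and pericyte markers summed to 16.5 to 72.9 CPM at E18 and 14.8 to 18.01 CPM at P5. Most of that sum at E18 was Kdr (69.5, 62.9 and 14.1 CPM), whereas Rgs5, Pecam1 and Tek were each called lower at E18, all under 4 CPM. Bipolar markers summed to 584 to 667 CPM at E18 and 305 to 379 CPM at P5, mostly as Isl1, which RGCs also express (522 to 617 and 207 to 309 CPM), whereas Prkca (42.3 and 78.7 CPM on average) and Trpm1 (2.43 and 4.30 CPM) were called higher at P5. Sums at E18 and P5 were 529 to 623 and 531 to 554 CPM for Müller glia and astrocytes, and 761 to 973 and 607 to 765 CPM for progenitors. Most of the progenitor sum was Pax6 (622 to 751 CPM at E18 and 498 to 629 CPM at P5). Of the 12 progenitor markers, 5 were called higher and 0 lower at E18. These were Sox2 (38.7 CPM on average at E18 and 1.03 at P5), Notch1 (11.3 and 1.43), Fgf15 (8.80 and 0.217), Lhx2 (3.42 and 0.249) and Rax (3.04 and 0.315). Among the E18 samples, each of these 5 was lowest in replicate 4. Horizontal, oligodendrocyte, microglial and red blood cell markers stayed under 112 CPM in sum in every sample. The part of these cells in the results was not tested.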

How the data were processed

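RNA from immunopanned RGCs was sequenced as paired-end reads after ribosomal RNA depletion, although the labels name polyA RNA. Per the study's methods, the authors aligned reads to mm10 with STAR and counted RefSeq genes with HT-seq. The deposited raw counts per gene and sample were used. The authors' normalized counts, log2 fold changes, p-values, false discovery rates and rank were not used. The labels' processing notes name CASAVA 1.8.2 and edgeR. One E18 column name carries the numbers 1, 2 and 5 and was taken as replicate 1.

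Genes were kept by the edgeR expression filter (16449 of 24060), and their TMM-scaled counts were fitted by age with quasi-likelihood models (edgeR 4.0.16, R 4.3.3). P-values were adjusted by Benjamini-Hochberg and called under 0.05. CPM was taken over library sizes after TMM, and likeness was computed on log2(CPM + 0.5). The fit was tested on simulated data. Samples of one age differed by 30.5 to 141 in chi-square per degree of freedom, far above sampling noise, so the spread between samples sets the precision. Shares, sums and ratios were compared by two-sided exact permutation tests. Exon and coding lengths, positions and coding sequences came from GENCODE M21 (GRCm38), and promoters from RefSeq, read with Python 3.11.15 and Biopython 1.88. A few genes are not reported here. The subunit genes and all lists were chosen with earlier results of these data known. In each list around the channel, called genes averaging 1 CPM or more were named, at most 4 by size of change, and every gene of lists with 5 or fewer. The 3 most alike genes were named for the called subunit genes with the largest change in each direction. Alternatives were DESeq2 1.42.0, the exact and likelihood ratio tests of edgeR, 2 other normalizations, 2 other filters, coding length, all 10 pore genes, and leaving out each sample.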

Additional observations from a re-analysis of the deposited data

How the results depend on the processing

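The calls and directions of Cacna2d1, Cacna2d2, Cacnb2, Cacnb3 and Cacnb4 held under every alternative test, normalization, filter and left-out sample. Their log2 fold changes of E18 over P5 ranged from -1.07 to -0.80, -0.91 to -0.59, -2.70 to -2.26, 0.48 to 0.58 and -0.75 to -0.65. The 3 genes that were not called moved with single samples, and the cause was not tested. Cacna2d3 gave 0.18 without E18 replicate 4 and ranged from -0.96 to 0.18 over left-out samples. Cacnb1 gave -0.078 without E18 replicate 4, -0.02 without P5 replicate 6 and -0.05 without P5 replicate 8, with a range of -0.078 to 0.10. Cacna2d4 ranged from -0.86 without E18 replicate 1 to -0.07 without P5 replicate 9. The difference in family share, E18 minus P5, turned to -0.277 percentage points for Cacna2d3 without E18 replicate 3 (range -0.277 to 5.34) and to -0.0237 for Cacna2d4 without E18 replicate 1 (range -0.0237 to 0.227). Of 21 called genes in the lists around the channel, 7 lost the call in at least 1 alternative fit. Over the 21 genes the call was lost in 24 of 272 combinations of gene and fit, and 0 reversed. Over all tested genes, calls numbered 7135, against 7682 with DESeq2, 4575 without E18 replicate 3 and 8796 without P5 replicate 8. No paired analysis was possible because the ages share no replicate number. Cacna2d4, with 36 to 154 reads per sample, was not tested under the filter of 1 CPM. Per coding length, the beta to pore difference was 0.044 against 0.154, and the share difference was -1.06 against -3.35 percentage points for Cacnb1 and -4.05 against -1.95 for Cacnb2.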
